A study of Homo sapiens with 12 samples.

Results

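The comparison described here sets the 4 arrays labelled shCREB3 against the 4 arrays labelled shCREB2, each pair taken within the same cell line (8 of the 12 arrays of the series). The arrays were chosen by their titles. The other 4 arrays, labelled shControl, carry a scrambled hairpin and serve as a reference level only. The lines were Jurkat and Molt4 (T-ALL, T-cell acute lymphoblastic leukemia) and Nalm6 and RS4;11 (BCP-ALL, B-cell precursor leukemia). Every line was stably transduced with a lentiviral pLKO1-mCherry vector and expanded, so the scrambled cells carry the same virus and reporter. All groups are human cell lines in culture, with 1 array per line and vector and no treatment time in the labels. The question of the comparison is where 2 hairpins against the same gene leave the same line with different mRNA levels.

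CREB, the product of CREB1, is a transcription factor that binds cAMP response elements (CREs) in promoters and is activated when kinases downstream of cAMP, ERK and other signals phosphorylate it. It then recruits the coactivators CREBBP and EP300. A short hairpin RNA (shRNA) is processed into a small RNA that guides cleavage of a matching mRNA, and hairpins of different sequence aimed at 1 gene share that target but not their other partial matches. The numbers in shCREB2 and shCREB3 count hairpins against CREB and do not stand for the genes ATF4 (once called CREB2) or CREB3. The hairpin sequences are given in none of the sources used here.

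All levels below are log2 signals, and all differences are shCREB3 minus shCREB2 on that scale, as the mean of 4 within-line differences with its standard error (SE). Of the 31424 genes with a symbol in the deposited table, 12508 had a probe detected on at least 4 of the 12 arrays and were tested. Between 14320 and 15660 probes were detected per array. CD3D, a chain of the T-cell receptor complex, lay between 12.45 and 12.99 in the T-ALL lines and at most at 7.54 in the BCP-ALL lines, and CD79A, a chain of the B-cell receptor complex, lay between 10.87 and 11.6 in the BCP-ALL lines and at most at 8.39 in the T-ALL lines. The shCREB2 array of Nalm6 was the least like the rest, with a highest correlation of 0.971 with another array of its line, while each of the other 11 arrays reached at least 0.987. Where leaving out Nalm6 moved the mean difference of a gene by over 1.5 times, the value without it is given too. The array number limits the precision, and with 1 array per line and vector the p-values measure the spread between lines.

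On average CREB1 was not lower on the shCREB3 arrays than on the shCREB2 arrays, though it was slightly lower in Nalm6. It was below shControl only on the shCREB2 arrays of Jurkat and RS4;11. On the shControl arrays of Jurkat, Molt4, Nalm6 and RS4;11 its levels were 9.50, 9.77, 10.00 and 10.13. The shCREB2 arrays of the same lines gave 9.47, 10.14, 10.23 and 9.91, and the shCREB3 arrays gave 9.61, 10.20, 10.18 and 10.38. The levels of the arrays labelled shCREB2 and shCREB3 overlapped, and the difference was 0.16 (SE 0.09, with a 95% confidence interval from -0.07 to 0.38, adjusted p = 0.33 by limma over 4 lines). These are means over 5 CREB1 probes, of which 2 were detected. Without RS4;11 the mean difference was 0.05. CREB protein is not measured on these arrays, the targeted mRNA gives no check of the labels, and directions below are those of the arrays labelled shCREB2 and shCREB3.

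Of the 12 measured genes of the CREB family and its coactivators, 1 was lower and 1 was higher at an unadjusted p under 0.05 from limma, against 13.9% and 11.4% of all genes tested. CREB3L2, a membrane-bound relative of CREB, was lower with shCREB3 by 0.26 in Jurkat, 0.29 in Molt4, 0.39 in Nalm6 and 0.21 in RS4;11. Its mean difference was -0.29 (SE 0.05, n = 4 lines, adjusted p = 0.0594 from limma), and its shControl level lay below both shRNAs in every line. EP300, an acetyltransferase that CREB recruits, was higher by 0.19 (SE 0.07). It was detected on 7 of the 12 arrays, and its levels with the shRNAs were low in the T-ALL lines, between 6.85 and 7.11. ATF4 differed by 0.06 (SE 0.05, 0.04 without Nalm6) and CREB3 by -0.06 (SE 0.08, -0.11 without Nalm6 and 0.02 without RS4;11). Among 16 textbook CREB targets, 1 was lower and 3 were higher at an unadjusted p under 0.05, and the median difference was -0.06, against -0.01 over all genes tested. The 3 higher ones were ID3, an inhibitor of E proteins (0.88, SE 0.31, 0.45 without Nalm6), CCND2, a D-type cyclin detected on 6 of the 12 arrays (0.65, SE 0.23), and BCL2, an inhibitor of apoptosis (0.30, SE 0.08). The mean of CCND2 rested mainly on the T-ALL lines. It was 0.45 without Jurkat and 0.49 without Molt4, but 0.83 without Nalm6 and 0.84 without RS4;11. DUSP1, a phosphatase of MAP kinases, was the lower one (-0.21).

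No gene passed an adjusted p under 0.05 between the shRNAs in the limma fit of the 8 arrays with the line as a block (0 of 12508, 0%). The smallest adjusted p was 0.0537. At an unadjusted p under 0.05 there were 3158 genes (25.2%), of which 1735 (13.9%) were lower and 1423 (11.4%) higher with shCREB3. The methods' paired t-test also called 0 genes after Benjamini-Hochberg adjustment, with 2176 at an unadjusted p under 0.05. At an adjusted p under 0.10 by limma, a threshold chosen once the values were known, 700 genes (5.6%) were lower and 630 (5.04%) higher. When all 12 arrays entered 1 limma fit, in which the scrambled arrays add to the estimate of the spread but not to the difference, 1772 genes (14.2%) passed an adjusted p under 0.05, with 949 (7.59%) lower and 823 (6.58%) higher. Without Nalm6 that fit called 1545 genes, and without Jurkat or without Molt4 it called 0. Scaling the probe signals to 1 median per array, in place of the deposited values, moved the split of the 12-array calls to 591 lower and 1245 higher.

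Although no single gene passed in the fit of 8 arrays, the lines agreed in direction over many genes. The difference had the same sign in all 4 lines for 4531 genes (36.2%), lower for 2492 (19.9%) and higher for 2039 (16.3%). Of these, 1610 (12.9%) lower and 1297 (10.4%) higher genes also had an unadjusted p under 0.05 by limma. With median scaling, 1703 genes were lower and 2803 higher in all 4 lines, in place of 2492 and 2039. Across the 12508 genes, the differences in Jurkat correlated with those in Molt4 at r = 0.79, with Nalm6 at 0.49 and with RS4;11 at 0.48. The other pairs of lines had r = 0.53 for Molt4 and Nalm6, 0.43 for Molt4 and RS4;11, and 0.41 for Nalm6 and RS4;11. These are descriptions over genes, which are not independent, but each pair of lines shares no array. The size of the differences was not the same in the lines. Their SD over genes was 0.24 in Jurkat, 0.26 in Molt4, 0.38 in Nalm6 and 0.14 in RS4;11.

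**Figure D1:**
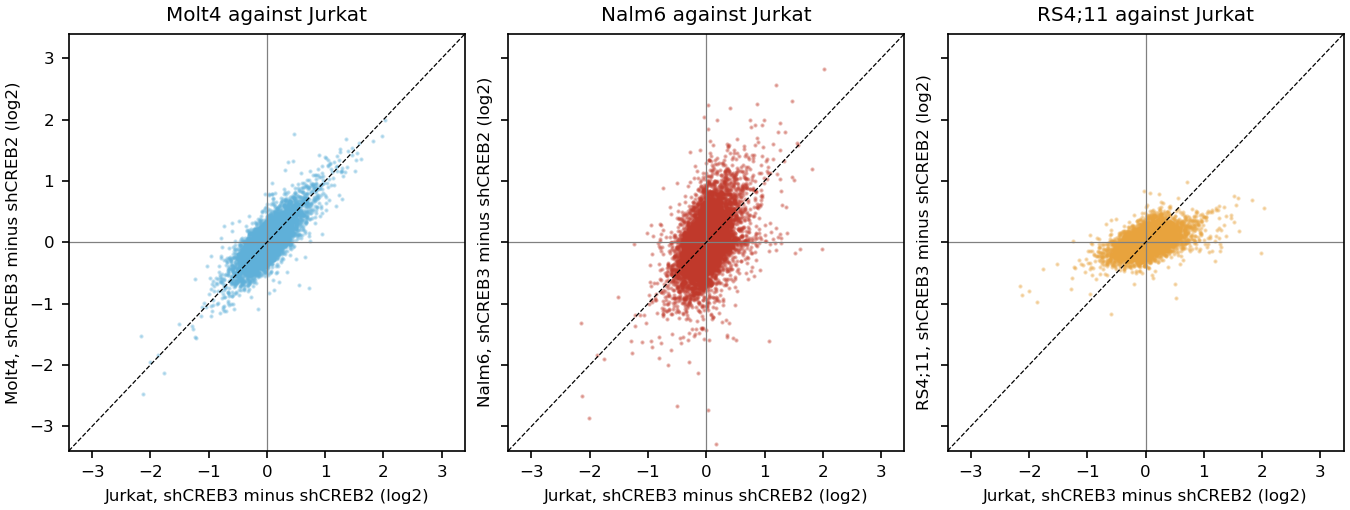
Differences of the 12508 genes between shCREB3 and shCREB2 (log2) in Molt4, Nalm6 and RS4;11 on the vertical axes against Jurkat on the horizontal axis. Each point is a gene and the dashed line marks equal differences. Molt4 follows Jurkat along the dashed line (r = 0.79), the Nalm6 points spread more widely, and the RS4;11 points have the same tilt with a flatter slope.

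RS4;11 followed the other lines in direction with smaller differences. Genes lower with shCREB3 in each of Jurkat, Molt4 and Nalm6, by over 0.5 on average, numbered 274, and 261 of them (95.3%) were lower in RS4;11 too, where 51.4% of all genes were lower. The median of these 274 genes was -0.60 over the 3 lines and -0.20 in RS4;11. Of 402 genes higher in the same 3 lines, 364 (90.5%) were higher in RS4;11, where 48.4% of all genes were higher, with medians of 0.65 and 0.20. The same count taken for Jurkat from the other 3 lines gave 160 of 164 genes lower and 246 of 250 higher. For Molt4 it gave 137 of 139 and 232 of 233, and for Nalm6 it gave 77 of 82 and 157 of 173. RS4;11 had the smallest of the 4 differences for 89.1% of the 366 genes (2.93%) that differed by over 0.5 with 1 sign in all lines, against 43.5% of all genes.

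The largest differences were seen in 37 genes with a mean difference over 1, of which 14 (0.112% of all genes) were lower and 23 (0.184%) higher with shCREB3. In the fit of 8 arrays their adjusted p from limma lay between 0.0537 and 0.0876, and in the fit of 12 arrays between 0.00322 and 0.0337. All 37 had 1 sign in the 4 lines, RS4;11 held the smallest difference of each, and for 33 of them the shCREB2 and shCREB3 arrays did not overlap, as for 4.33% of all genes tested (2.29% lower and 2.03% higher). The genes of this group that are named below only for their size were chosen after their values were seen.

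**Figure D2:**
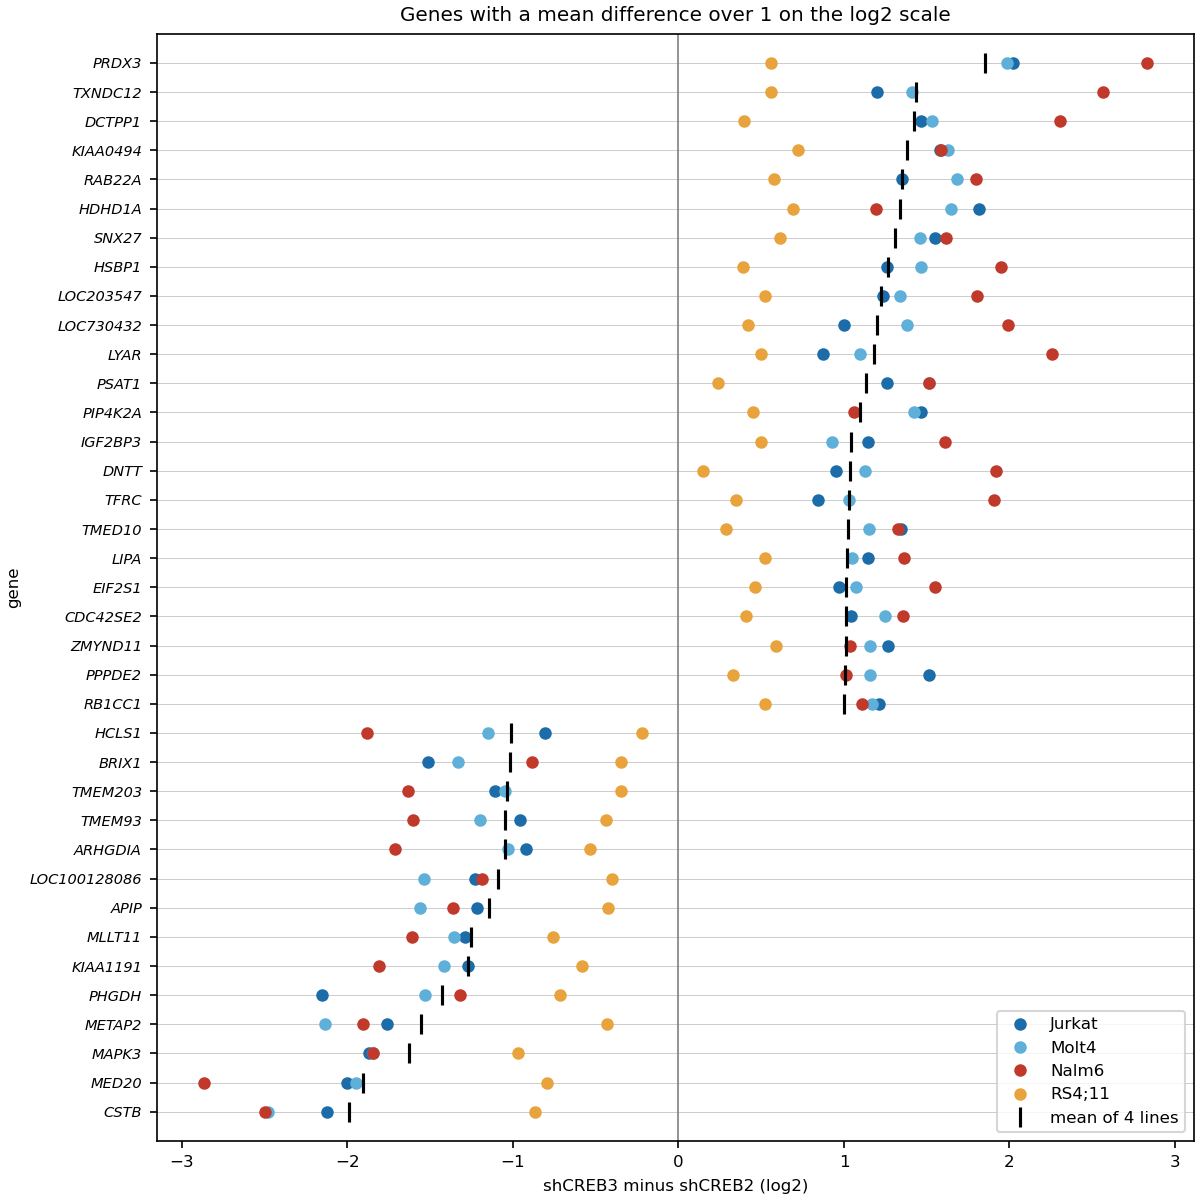
Difference between shCREB3 and shCREB2 (log2, horizontal axis) of the 37 genes with a mean difference over 1, with 1 coloured point per cell line and a black bar at the mean of the 4 lines. No point crosses 0, and the RS4;11 point is the nearest to 0 in each row.

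Among the genes lower with shCREB3, CSTB had the largest mean difference. It encodes cystatin B, an inhibitor of the lysosomal cysteine proteases. The level was 10.90 with shCREB2 and 8.77 with shCREB3 in Jurkat, 10.71 and 8.23 in Molt4, 9.96 and 7.46 in Nalm6, and 11.12 and 10.25 in RS4;11. The levels of the vectors overlapped across lines, but within each line shCREB3 was lower, by 1.99 on average (a factor of 3.98 on the linear scale, SE 0.28, n = 4 lines, adjusted p = 0.0537 from limma). With shControl the levels were 11.09, 10.74, 10.01 and 11.13, which puts the scrambled arrays beside shCREB2.

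MAPK3, which encodes ERK1, a kinase of the ERK cascade, had levels of 9.68, 9.60, 9.39 and 9.63 with shCREB2 in the lines in the order given above. With shCREB3 its levels were 7.81, 7.76, 7.55 and 8.66. These groups did not overlap, and the difference was -1.63 (SE 0.16, n = 4 lines, adjusted p = 0.0537 from limma, 0.00423 in the fit of 12 arrays). Its shControl levels were 9.59, 9.50, 9.20 and 9.27. The same pattern, with shControl near shCREB2 and shCREB3 lower, was seen for MED20, a subunit of the Mediator complex (-1.90, SE 0.30), and METAP2, a methionine aminopeptidase (-1.56, SE 0.27). NCL, the nucleolar protein nucleolin, differed by -0.95 (SE 0.16), with -1.14, -1.20 and -1.18 in Jurkat, Molt4 and Nalm6 and -0.28 in RS4;11.

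MLLT11, a fusion partner of KMT2A in leukemia, lay on both sides of the scrambled arrays. In the order Jurkat, Molt4, Nalm6 and RS4;11 its levels were 9.88, 10.95, 10.52 and 10.30 with shControl, 10.54, 11.62, 11.14 and 10.65 with shCREB2, and 9.25, 10.27, 9.53 and 9.89 with shCREB3. Every line had its highest level with shCREB2 and its lowest with shCREB3, and the difference was -1.25 (SE 0.13, adjusted p = 0.0537 from limma).

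The other named genes with the smallest p-values among those lower with shCREB3 differed by less than 1. They were CTXN1, a small membrane protein known from brain (-0.87, SE 0.08), MYOM2, a protein of the muscle M-band (-0.85, SE 0.08), and RUSC1, an adaptor protein (-0.68, SE 0.07). SF3B3, a subunit of the U2 splicing particle, differed by -0.56 (SE 0.06) and did not overlap between the shRNAs. ZDHHC12, a palmitoyltransferase, differed by -0.43 in the narrow range of -0.37 to -0.47 over the lines. MTHFD2, MAPK3 and MLLT11 belonged to the same 10 genes, as did LOC92755 and LOC645688, which are listed under a locus number only. All 10 had an adjusted p of 0.0537 from limma in the fit of 8 arrays, which did not pass the threshold.

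The genes higher with shCREB3 were led in size by PRDX3, a mitochondrial peroxiredoxin that removes hydrogen peroxide. With shCREB2 its level was 9.11 in Jurkat, 8.93 in Molt4, 8.53 in Nalm6 and 10.67 in RS4;11, and with shCREB3 it was 11.13, 10.91, 11.36 and 11.23. The groups did not overlap, and the difference was 1.85 (a factor of 3.60 on the linear scale, SE 0.34, n = 4 lines, adjusted p = 0.0582 from limma). The shControl levels of 11.10, 11.24, 11.38 and 11.34 lay beside shCREB3. TXNDC12, a thioredoxin-like protein of the endoplasmic reticulum (1.43, SE 0.30), and DCTPP1, a pyrophosphatase of deoxycytidine nucleotides (1.43, SE 0.28), had the same pattern in all 4 lines.

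KIAA0494, now EFCAB14, had levels of 7.70, 7.60, 7.44 and 8.0 with shCREB2 in the same order of lines, and of 9.28, 9.23, 9.02 and 8.72 with shCREB3. The shControl levels of 8.90, 8.76, 8.53 and 8.54 lay between the shRNAs in every line. The difference was 1.38 (SE 0.16, adjusted p = 0.0537 from limma, 0.00322 in the fit of 12 arrays), and the groups did not overlap. USP14, a deubiquitinating enzyme of the proteasome, was at 7.26, 7.09, 7.10 and 7.71 with shCREB2 and at 8.12, 7.83, 7.92 and 8.22 with shCREB3, without overlap. Its difference was 0.73 (SE 0.07, adjusted p = 0.0537 from limma), and its shControl levels of 8.07, 7.85, 7.99 and 8.19 lay beside those of shCREB3 in each line.

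**Figure D3:**
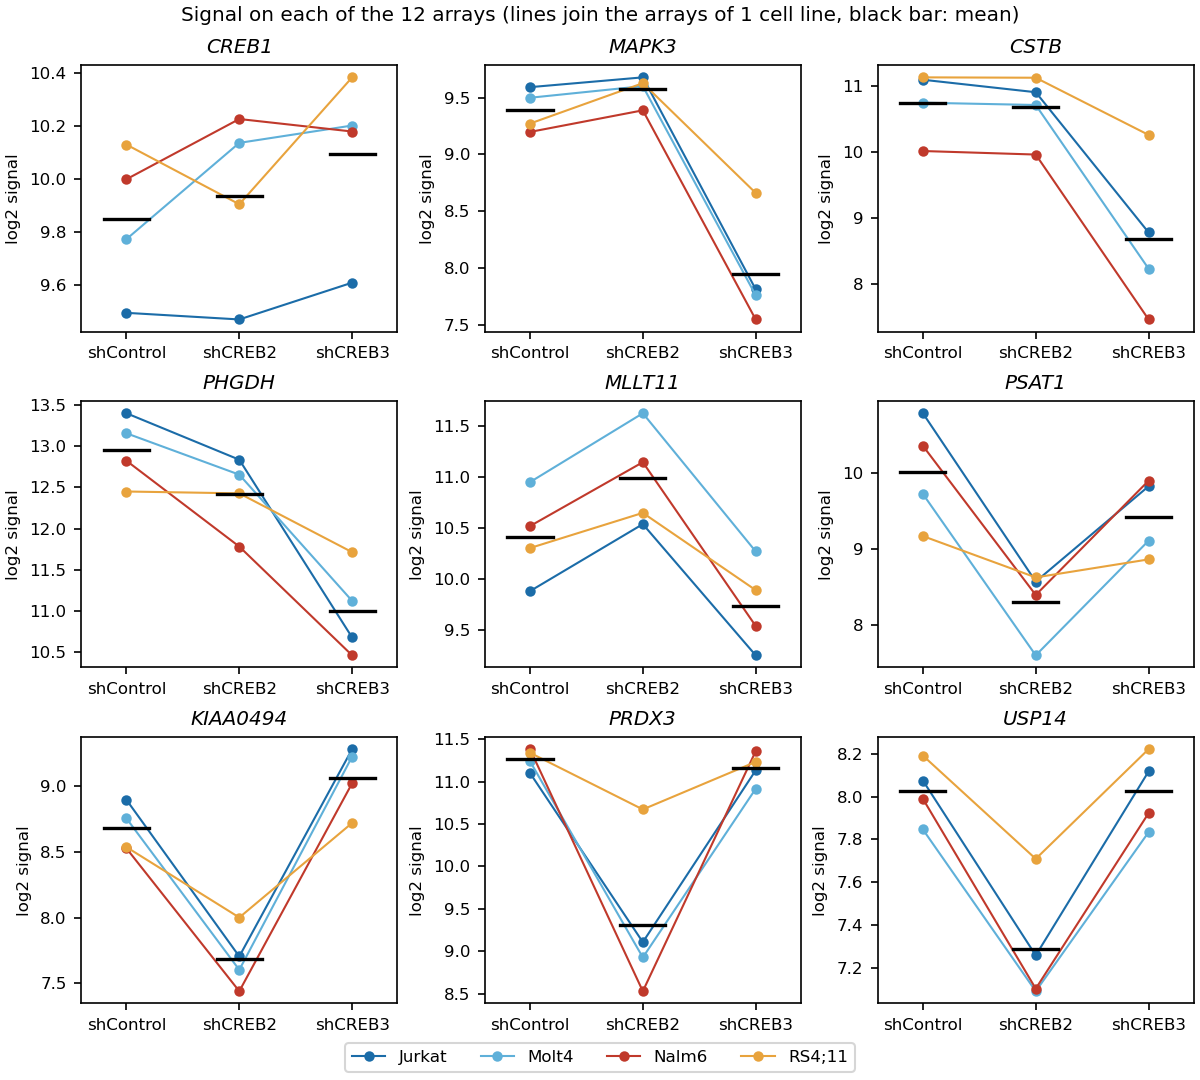
Log2 signal (vertical axes, with a scale of its own in each panel) of 9 genes on the 12 arrays, by vector on the horizontal axis. Coloured lines join the arrays of 1 cell line and black bars are means over the 4 lines. CREB1 overlaps between the vectors, MAPK3, CSTB, PHGDH and MLLT11 are lowest with shCREB3 in each line, and PSAT1, KIAA0494, PRDX3 and USP14 are lowest with shCREB2 in each line.

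The other named genes with the smallest p-values among those higher with shCREB3 differed by 1.01 or less. ZMYND11, a reader of methylated histone H3.3, differed by 1.01 (SE 0.11), with levels of 7.54 to 8.03 with shCREB2 and 8.62 to 8.85 with shCREB3. TNPO3, a nuclear import receptor of splicing factors, differed by 0.67 (SE 0.08), and AP3M1, a subunit of the AP-3 sorting adaptor, by 0.62 (SE 0.07). SNX26 (now ARHGAP33), a sorting nexin with a GTPase-activating domain, differed by 0.57 (SE 0.06) without overlap between the shRNAs. TGFBR2, a receptor of TGF-beta, was higher by 0.56 in Jurkat, 0.67 in Molt4, 0.75 in Nalm6 and 0.54 in RS4;11 (mean 0.63, SE 0.06). The remaining 3 were SCNN1D, a subunit of an epithelial sodium channel (0.56, SE 0.06), and the homeobox genes IRX3 (0.49, SE 0.05) and HHEX (0.46, SE 0.05). All of these had an adjusted p of 0.0537 from limma, over the threshold. HHEX was detected on 9 of the 12 arrays, and its levels with the shRNAs were low in the T-ALL lines, between 6.92 and 7.46.

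The scrambled arrays show on which side of a difference the level of the scrambled hairpin lay. Of the 226 genes (1.81%) higher with shCREB3 in all 4 lines and by over 0.5 on average, shControl was nearer to shCREB3 in at least 3 lines for 178 (78.8%) and nearer to shCREB2 for 31 (13.7%). Their median was -0.55 for shCREB2 minus shControl and 0.12 for shCREB3 minus shControl. Of the 140 genes (1.12%) lower by the same rule, 57 (40.7%) had shControl nearer to shCREB3 and 68 (48.6%) nearer to shCREB2, and the medians were 0.30 and -0.33. Over all genes tested the shares were 42.3% nearer to shCREB3 and 26.6% nearer to shCREB2. The comparisons with shControl share the scrambled arrays, so they are given side by side and not tested against each other. By the stricter count of nearness in every line, shControl was nearer to shCREB3 in all 4 lines for 139 of the 226 higher genes (61.5%, against 14.7% of all genes), and nearer to shCREB2 for 42 of the 140 lower genes (30%, against 6.72%). With Nalm6 left out of the choice of genes and of this count, these were 125 of 173 higher genes (72.3%, against 20.3% of all genes) and 42 of 82 lower genes (51.2%, against 13.1%).

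**Figure D4:**
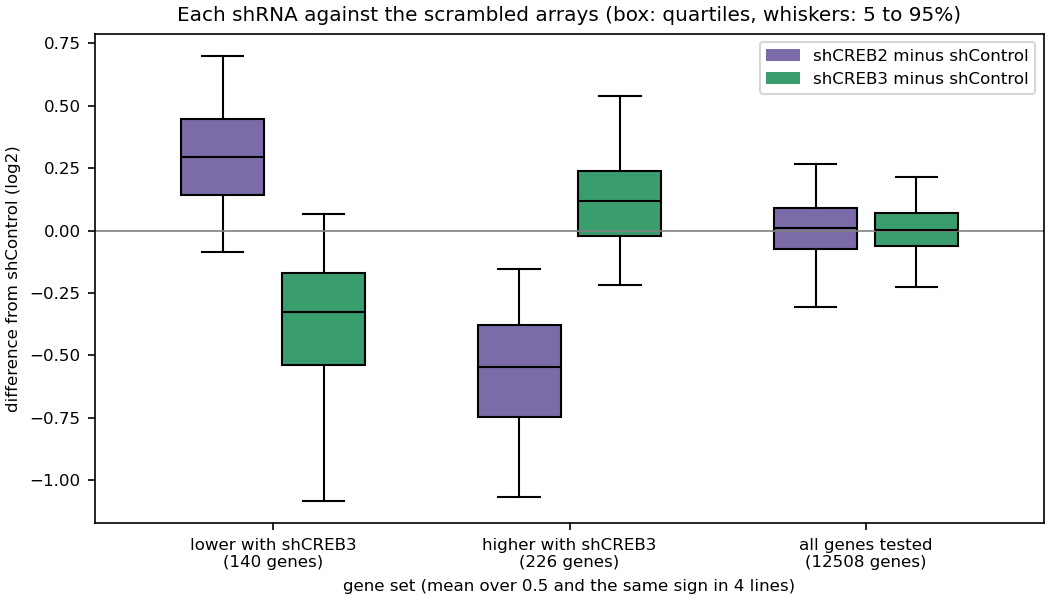
Difference from shControl (log2, vertical axis) of shCREB2 and of shCREB3, as the mean over 4 lines, for 140 genes lower and 226 genes higher with shCREB3 in all 4 lines and by over 0.5 on average, and for all 12508 genes. Boxes show quartiles and medians, whiskers the 5th to 95th percentile over genes. In the higher set the shCREB2 box lies below 0 (median -0.55) and the shCREB3 box near 0 (0.12), while in the lower set the boxes lie on either side of 0 (0.30 and -0.33).

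Serine synthesis held genes that differed in opposite directions. PHGDH, the first enzyme of the pathway, was lower with shCREB3, with levels of 12.84, 12.65, 11.78 and 12.43 with shCREB2 and 10.68, 11.12, 10.46 and 11.71 with shCREB3 in the same order of lines. The groups did not overlap, and the difference was -1.43 (SE 0.21, adjusted p = 0.0537 from limma, 0.0110 in the fit of 12 arrays). PSAT1, the next enzyme of the pathway, was higher with shCREB3, with 8.57, 7.59, 8.39 and 8.62 against 9.83, 9.11, 9.90 and 8.86, again without overlap. Its difference was 1.13 (SE 0.22, adjusted p = 0.0629 from limma, 0.0173 in the fit of 12 arrays). Both genes lay below shControl in 4 of 4 lines with either shRNA, with means of -0.53 for shCREB2 and -1.96 for shCREB3 in PHGDH, and of -1.72 and -0.59 in PSAT1. PSPH, the last enzyme, differed by -0.01 (SE 0.07, -0.0028 without Nalm6). Of the mitochondrial folate enzymes, MTHFD2 differed by -0.62 (SE 0.07) and SHMT2 by -0.34 (SE 0.07), while MTHFD2L differed by 0.41 (SE 0.10). Over the 16 measured genes of serine, glycine and folate metabolism 4 were lower and 3 higher at an unadjusted p under 0.05 (25% and 18.8%, against 13.9% and 11.4% of all genes), and the median difference was -0.01.

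The ERK cascade also split. Besides MAPK3, the adaptor GRB2 (-0.59, SE 0.14), the kinase ARAF (-0.32) and the kinase MAP2K2, or MEK2 (-0.24), were lower with shCREB3, and all 4 passed in the fit of 12 arrays. The ERK inhibitors SPRED1 and SPRED2 were each higher by 0.33 and passed there too. Of 22 measured genes 5 were lower and 4 higher at an unadjusted p under 0.05 (22.7% and 18.2%, against 13.9% and 11.4% of all genes), with a median difference of -0.02 that was 0.06 with median scaling.

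The lists with the highest medians were those of G2/M and mitosis (0.21 over 41 genes), DNA replication (0.15 over 47) and sterol synthesis (0.13 over 28), against -0.01 over all genes. Among the mitotic genes 12 were higher and 1 lower at an unadjusted p under 0.05 (29.3% and 2.44%, against 11.4% and 13.9% of all genes), and 6 passed as higher in the fit of 12 arrays (14.6%, against 6.58%). AURKA, a mitotic kinase, differed by 0.76 in Jurkat, 0.96 in Molt4, 2.0 in Nalm6 and 0.26 in RS4;11 (mean 0.99, SE 0.26, 0.66 without Nalm6), and KIF11, a spindle motor, by 0.76 (SE 0.20). In replication, 8 were higher and 3 lower (17% and 6.38%), with MCM10, an initiation factor, at 0.66 (SE 0.18, 0.43 without Nalm6) and FEN1, which removes flaps from Okazaki fragments, at -0.51 (SE 0.07). In sterol synthesis 5 of 28 were higher (17.9%) and 0 lower, among them INSIG1, which retains the sterol sensor in the endoplasmic reticulum (0.74, SE 0.20, 0.49 without Nalm6). Nalm6 carried much of these medians, with 0.72 for mitosis, 0.53 for replication and 0.41 for sterol synthesis. Without Nalm6 the medians were 0.05, 0.03 and 0.04, and 11, 9 and 6 genes were higher and 5, 7 and 1 lower, where 12.6% of all genes were higher and 13.6% lower.

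The lists with low medians differed in how even they were over the lines. The median of the small noncoding RNAs ran from -0.02 in Jurkat to -0.24 in Molt4. That of glycolysis and lactate ran from -0.22 in Jurkat to -0.07 in RS4;11. For the respiratory chain the median was -0.07 over 69 genes, and it lay between -0.06 and -0.09 in the 4 lines. There 22 genes were lower and 4 higher at an unadjusted p under 0.05 (31.9% and 5.80%, against 13.9% and 11.4% of all genes), and 11 against 0 passed in the fit of 12 arrays. NDUFB5, an accessory subunit of complex I, differed by -0.52 (SE 0.16), and by -0.32 without Nalm6. Without Nalm6 16 were lower and 2 higher. With median scaling, which moved all genes to 8.55% lower and 16.9% higher, these were 12 (17.4%) and 4 (5.8%). Of 77 cytosolic ribosomal proteins 14 were lower and 2 higher (18.2% and 2.6%, against 13.9% and 11.4% of all genes), with RPL13 at -0.57 (SE 0.14) and RPS13 at -0.43 (SE 0.07), though the median was -0.03.

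For 35 aminoacyl-tRNA synthetases the median was -0.09, with 9 lower and 2 higher (25.7% and 5.71%, against 13.9% and 11.4% of all genes). FARSA, a subunit of the phenylalanine enzyme, differed by -0.44 (SE 0.07). With median scaling the synthetases counted 5 lower and 5 higher, or 14.3% each, against 8.55% and 16.9% of all genes. In glycolysis and lactate the median was -0.10 over 22 genes, with 9 lower and 1 higher (40.9% and 4.55%). PGAM1, a mutase of the pathway (-0.49), and PFKFB3, which makes an activator of phosphofructokinase (-0.47), passed in the fit of 12 arrays with 2 others. With median scaling 5 were lower and 2 higher (22.7% and 9.09%). Among 29 small noncoding RNAs 10 were lower and 1 higher (34.5% and 3.45%), but in the fit of 12 arrays 1 was lower (3.45%, against 7.59% of all genes), and 5 of the 10 were genes of U1 RNA, copies so alike that a probe may not tell them apart.

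**Figure D5:**
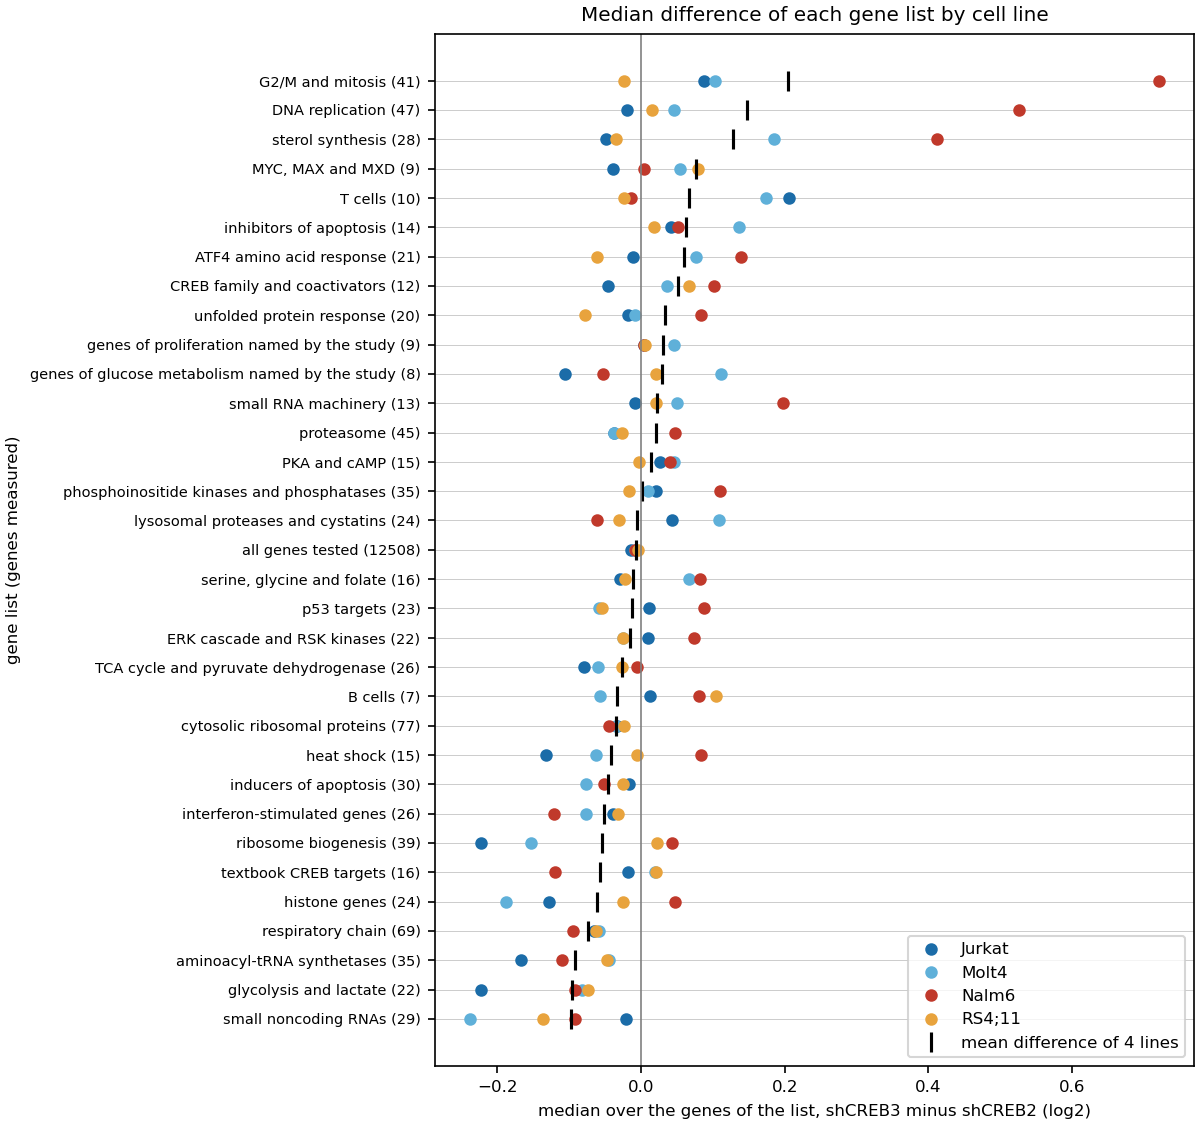
Median difference between shCREB3 and shCREB2 (log2, horizontal axis) over the genes of each list with at least 7 measured genes, by line (coloured points), with the median of the 4-line means (black bars) and the number of genes in parentheses. The Nalm6 points of mitosis, replication and sterol synthesis lie far to the right of the other lines, and the 4 points of the respiratory chain lie close together left of 0.

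The remaining lists, leaving out those of cell type markers, had medians between -0.06 and 0.08. Of 24 histone genes 9 were lower and 2 higher at an unadjusted p under 0.05 (37.5% and 8.33%, against 13.9% and 11.4% of all genes). For 20 genes of the unfolded protein response the counts were 6 and 3 (30% and 15%). With median scaling the histone genes had 7 lower and 2 higher, and the unfolded protein response 4 and 5. Among 13 genes of the small RNA machinery, on which hairpin processing depends, 5 were higher and 2 lower at an unadjusted p under 0.05 (11.4% and 13.9% of all genes), and DICER1 (0.41), XPO5, the exporter of hairpin precursors (0.45, SE 0.11), and TNRC6B (0.33) passed in the fit of 12 arrays. Of 26 interferon-stimulated genes 3 were lower and 2 higher, with BST2, a tether of budding virus, at -0.44 (SE 0.06) and OAS2, a sensor of double-stranded RNA, at 0.64 (SE 0.20, 0.36 without Nalm6). PMAIP1 (NOXA), which triggers apoptosis, differed by -0.75 (SE 0.21, -0.48 without Nalm6), and BNIP3, a mitochondrial BH3 protein, by -0.65 (SE 0.13). BIK, another inducer, was higher in all 4 lines, by 0.39 on average (SE 0.16, 0.19 without Nalm6). Of 30 inducers of apoptosis 4 were lower and 2 higher (13.3% and 6.67%, against 13.9% and 11.4% of all genes). LYAR, a nucleolar protein, differed by 1.18 (SE 0.27), while 9 of 39 genes of ribosome biogenesis were lower and 3 higher (23.1% and 7.69%). With median scaling 3 of these genes were lower and 3 higher (7.69% each, against 8.55% and 16.9% of all genes). PIP4K2A, a phosphoinositide kinase, differed by 1.10 (SE 0.17). Of 20 genes in 3 groups that the study named from these samples, which makes them no independent evidence, 5 were lower and 4 higher.

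Of the markers of other cell types, CD14 and CD33 (myeloid) and CDH2 (a gene of packaging cells) passed the filter. Their differences were 0.03, -0.20 and 0.18 (SE 0.09, 0.15 and 0.14), and without Nalm6 they were -0.075, -0.00078 and 0.28. No gene of the erythroid list passed the detection filter. Of 7 B-cell markers none had an unadjusted p under 0.05 from limma. Of 10 T-cell markers 1, CD2, was higher at that threshold and 0 were lower (10% and 0%, against 11.4% and 13.9% of all genes tested). CD2, an adhesion receptor of T cells, was higher with shCREB3 by 1.28 in Jurkat and 1.21 in Molt4 and differed by 0.07 in Nalm6 and -0.02 in RS4;11. It was detected on 9 of the 12 arrays, and its levels in the BCP-ALL lines were at most 7.19. CD7, from the same list, was lower with shCREB3 in all 4 lines (-0.38, SE 0.17) and was detected on 7 arrays.

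No gene passed a test of whether the difference between the shRNAs was itself different in the T-ALL and BCP-ALL lines (0 of 12508, limma on 2 against 2 lines, smallest adjusted p 0.174, 806 genes or 6.44% at an unadjusted p under 0.05, with 334 or 2.67% lower and 472 or 3.77% higher in the T-ALL lines). In the fit of 12 arrays 15 genes passed. The smallest p belonged to ACTG2, a smooth muscle actin, which was at 7.78 in Jurkat and 7.94 in Molt4 with shCREB2 and at 9.76 and 9.68 with shCREB3. In the BCP-ALL lines it stayed between 6.69 and 6.89 with either shRNA, where it was not detected, and the difference of differences was 2.0 (SE 0.13, adjusted p = 0.174 from limma). ACTG2, EPSTI1 and PITX1 were detected on 6 arrays, all of them of the T-ALL lines, so they passed the filter through these lines alone and their values in the BCP-ALL lines are background. The test of the lineages then says nothing about a response of these 3 genes in the BCP-ALL lines. EPSTI1, an interferon-induced gene, was higher with shCREB3 in Jurkat (1.39) and Molt4 (1.49). ALOX5AP, a protein needed for leukotriene synthesis, was higher with shCREB3 by 0.53 and 0.63 in the T-ALL lines and lower by 0.79 and 0.91 in the BCP-ALL lines. PITX1, a homeobox gene, differed by -0.84 and -0.80 in the T-ALL lines. DTX1, a regulator of NOTCH, differed by -0.94 and -1.12 there and by 0.28 and -0.02 in the BCP-ALL lines, and it was not detected in RS4;11. LOC284422, listed under a locus number, differed by -0.50 and -0.46 in the T-ALL lines and by 0.39 and 0.38 in the BCP-ALL lines. None of these genes passed the test of the 8 arrays, and with 2 lines per lineage a difference between lines and one between lineages cannot be told apart.

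The promoters of genes that differed are shown because CREB binds the palindrome TGACGTCA, the full CRE, and its shorter form TGACG. Of the 12508 genes, 8901 were matched to RefSeq by symbol, 1725 by the gene ID of the probe and 201 by an older symbol, and 8609 had a promoter window in GRCh38.p14, from 250 bases before to 50 after the first start site listed. The full letters stood in 3 of 100 windows (3%) of genes lower with shCREB3 in all lines and by over 0.5 on average, and in 4 of 182 (2.2%) of genes higher, against 3.47% of all genes tested and 1.98% of all 27305 promoters. The letters TGACG, read on both strands and also counted inside the full CRE, stood in 46% of the lower and 32.4% of the higher windows, against 35.8% of the genes tested and 25% of all promoters. The 7 windows with the full CRE and that of CREB3L2, the CREB relative described above, are printed here, 60 bases from each, 5′ to 3′ on the strand of the gene. Capitals mark TGACGTCA, and TGACG or its reverse complement CGTCA.
KLC1 (chr14:103629112-103629171, plus strand): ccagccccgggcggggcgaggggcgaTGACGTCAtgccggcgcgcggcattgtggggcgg
CSTF3 (chr11:33161602-33161661, minus strand): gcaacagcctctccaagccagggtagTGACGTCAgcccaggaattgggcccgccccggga
CPNE1 (chr20:35664930-35664989, minus strand): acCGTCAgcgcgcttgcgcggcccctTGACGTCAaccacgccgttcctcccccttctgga
C5orf32 (chr5:140175136-140175195, plus strand): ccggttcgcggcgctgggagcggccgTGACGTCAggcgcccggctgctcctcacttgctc
CENPE (chr4:103198424-103198483, minus strand): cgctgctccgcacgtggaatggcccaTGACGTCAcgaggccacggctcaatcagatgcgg
MCM10 (chr10:13161503-13161562, plus strand): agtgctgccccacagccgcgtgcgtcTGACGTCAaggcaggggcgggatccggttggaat
KIAA0494 (chr1:46719155-46719214, minus strand): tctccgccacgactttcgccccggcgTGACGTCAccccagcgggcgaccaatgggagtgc
CREB3L2 (chr7:138002232-138002291, minus strand): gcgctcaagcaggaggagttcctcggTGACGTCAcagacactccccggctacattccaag

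With the same 8 letters in their promoters, these genes differed in opposite directions between the shRNAs. KLC1 (-0.71), CSTF3 (-0.63), CPNE1 (-0.53) and CREB3L2 (-0.29) were lower with shCREB3, and C5orf32, now CYSTM1 (0.51), CENPE (0.52, 0.33 without Nalm6), MCM10 (0.66) and KIAA0494 (1.38) were higher. The shares of the full CRE in both directions rest on 3 and 4 genes and lay below the share among all genes tested, without a test. KLC1, a light chain of kinesin, was at 9.18, 8.94, 9.61 and 8.51 with shCREB2 in the same order of lines and at 8.33, 8.34, 8.45 and 8.28 with shCREB3. CSTF3, a factor of mRNA cleavage, was at 8.74, 9.23, 8.89 and 8.60 and at 8.08, 8.39, 8.20 and 8.26. CENPE, a kinetochore motor, was at 8.15, 8.10, 7.59 and 8.46 with shCREB2 and at 8.59, 8.50, 8.71 and 8.59 with shCREB3. The shCREB2 and shCREB3 arrays did not overlap for KLC1, CSTF3 and CENPE. Binding was not measured.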

How the data were processed

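Total RNA of transduced cells (12 samples, 4 lines with 3 vectors each) was hybridised to Illumina HumanHT-12 BeadChips at a service company, where the data were also extracted. The signals came from GenomeStudio. The authors normalized them between arrays by quantiles and deposited 1 value per gene, the mean of its probes. The deposited values are natural log signals, as the raw export showed, although the methods speak of log2, and they were turned into log2 here. The deposited raw table also holds detection p-values per probe, which were used for the filter (p under 0.01 on at least 4 of the 12 arrays). In 98.06% of its signal cells the decimal mark was lost. It was put back by comparison with the normalized values, and these signals were used only for the alternatives with other scaling. The 3270 rows without a gene symbol were left out. Groups come from the array titles.

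The difference was fitted with limma 3.58.1 (R 4.3.3) on the 8 shRNA arrays. The fit was blocked by line, because both arrays of a pair come from the line named in their titles. The p-values were adjusted over all 12508 genes by Benjamini-Hochberg. A second fit used all 12 arrays. Named genes were CREB1, the 10 with the smallest p-value in each direction with the same sign in 4 lines (since fewer than 5 passed), the 3 with the smallest p-value per direction between the lineages, and the extreme members of each gene list. Other genes named were chosen after their values were seen. The members and the lists were chosen with earlier results of these data known. The fit was tested on simulated data. Alternatives covered the filter, the normalization, the block, the test, the threshold and each line or array left out. Leaving lines out of the list counts and of the fit of 12 arrays, median scaling of the lists and the threshold of 0.1 were added after the data were seen. Some genes are not reported here. Promoters came from RefSeq (GRCh38.p14).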

Additional observations from a re-analysis of the deposited data

Results flagged for a closer look

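Among 90 named genes, the difference in 1 line lay far from the other 3 for 9, a distance that chance gives for about 1 in 20 groups. RS4;11 was that line for 4 genes, Nalm6 for 4 and Molt4 for 1. In RS4;11 the difference between shCREB3 and shCREB2 was nearer to 0 than in the other lines for MAPK3 (-0.97, against -1.87 to -1.84), RUSC1 (-0.44, against -0.78 to -0.74), KIAA0494 (0.72, against 1.58 to 1.63) and NCL (-0.28, against -1.20 to -1.14). In Nalm6 it was larger for ID3 (2.19, against 0.40 to 0.51), OAS2 (1.46, against 0.24 to 0.44), PSMG2, a chaperone of proteasome assembly (1.00, against 0.21 to 0.31), and CD33 (-0.79, against -0.03 to 0.04). In Molt4 CD7, a T-cell surface protein, stood at -1.08, against -0.20 to -0.09.

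For 4 named genes the 2 T-ALL lines had 1 sign and the 2 BCP-ALL lines the other. The difference between the lineages was 1.43 for ALOX5AP (0.58 in the T-ALL and -0.85 in the BCP-ALL lines, unadjusted p = 4.8e-05 from limma) and -0.87 for LOC284422 (-0.48 and 0.39, unadjusted p = 0.00030 from limma). For ACTG2 it was 2.0 (1.86 and -0.14, unadjusted p = 2.0e-05 from limma) and for CDH2 0.58 (0.47 and -0.11, unadjusted p = 0.0115 from limma). ACTG2 and CDH2 were detected on the 6 arrays of the T-ALL lines alone, so that their differences in the BCP-ALL lines are background and no opposite direction was measured. None of the 4 passed after adjustment over 12508 genes.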

How the results depend on the processing

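The count of 0 genes past the test of 8 arrays depended on the processing. It was 435 with genes detected on all 12 arrays, 338 with quantile-normalized signals of the brightest probe, 469 with median scaling (119 lower, 350 higher), 314 with normexp background correction, 1330 at an adjusted p under 0.10 and 1772 with all 12 arrays in the fit. Leaving out a line gave 0 to 599, the latter without RS4;11. The pairing comes from the cell lines. With no replicate block the count stayed 0, while the genes at an unadjusted p under 0.05 went from 3158 to 772. They were 835 with the methods' t-test, unpaired, and 1943 to 3271 with a line left out. Median scaling turned their split from 1735 lower and 1423 higher to 1069 and 2116. The 1772 genes of the 12-array fit became 7 with no replicate block, 511 to 2130 with 1 array left out and 0 to 1701 with a line left out. Between the lineages 15 genes passed with 12 arrays, and the 806 at an unadjusted p under 0.05 were 1782 with no filter and 436 with genes detected on all 12 arrays. The mean difference of ALOX5AP (-0.13) reversed to 0.083 without Nalm6 and 0.12 without RS4;11 (range -0.39 to 0.12 over the lines left out), and that of CD14 (0.03) to -0.075 without Nalm6 (range -0.075 to 0.099). LOC284422 (-0.05) was 0.11 without Jurkat, 0.09 without Molt4 and -0.19 without Nalm6, and CREB3 (-0.06) was 0.02 without RS4;11 and -0.11 without Nalm6. The causes were not tested. With 4 lines and 1 array each, small differences cannot be told from the spread between lines.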
